A study of Mus musculus with 21 samples.

Results

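Fibroblast growth factor (FGF) signalling was followed through 10 genes in mouse cells undergoing chemical reprogramming: the ligands Fgf3 and Fgf4, the receptors Fgfr1, Fgfr2, Fgfr3 and Fgfr4, the co-receptor Klb, and the feedback genes Spry2, Spry4 and Dusp6. The genes were taken by symbol from 43436 gene IDs measured in every library, and all 10 were among the 16650 IDs tested, whose FPKM reached 1 or more in 2 or more of 21 libraries. FPKM is the number of fragments mapped to a gene, scaled by the length of the gene and by the fragments of the library, so levels of different genes can be set side by side. Receptor and ligand levels were compared between XEN cells, 3 of whose 4 libraries were grown with basic FGF according to the labels, cells on the way to pluripotency and pluripotent cells.

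Chemical reprogramming makes pluripotent cells from somatic cells by means of small molecules, without introduced factors. Cells on the way were collected once at each of day 12, day 20, day 26 and day 28, and in 2 libraries at day 16. They started from embryonic fibroblasts (MEF, 2 libraries) of E13.5 embryos. Both belong to the strain C57BL/6J-Tg(GOFGFP)11Imeg/RbrcxICR. Extraembryonic endoderm (XEN) cells, the stem cells of the primitive endoderm, came from wild-type ICR mice. CeXEN (2 libraries) were derived from E3.5 embryos in stage 1 medium with VC6TFAE and 20 ng/ml bFGF. The eXEN libraries (2) are of 1 established line, replicate 1 kept in stage 1 medium with VC6TF and 20 ng/ml bFGF and replicate 2 in traditional XEN medium. Chemically induced pluripotent stem cells (CiPSC) were 7 lines of the strain of the fibroblasts, with 1 library each. Embryonic stem cells (ESC, 2 libraries) came from E3.5 embryos, replicate 1 of that same strain and replicate 2 of C57BL/6 (B6)N. The labels used here give the medium of the XEN libraries alone, and strain and XEN identity cannot be told apart. The labels do not state that libraries of a group came from separate cultures. In comparisons of groups, p-values measure a spread between libraries that is pooled over all groups with more than 1 library. It takes in 7 CiPSC lines, 2 strains of ESC and 2 media of eXEN, and for MEF, day 16 and CeXEN it may be technical. For genes above 5 FPKM, the median size of the log2 difference between 2 libraries, after centring, was 0.428 in MEF and 0.333 in day 16. It was 0.356 in eXEN, 0.270 in CeXEN, 0.245 in ESC and 0.106 to 0.320 in CiPSC.

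FGF ligands bind receptor tyrosine kinases at the cell surface, and the receptors pass the signal through the adaptor FRS2 to the RAS and ERK kinase cascade. ERK activity induces its own brakes, among them the Sprouty proteins, which act on the receptor side of the cascade, and DUSP6, a phosphatase that removes phosphate from ERK. In the mouse blastocyst, FGF4 from the epiblast drives neighbouring cells towards primitive endoderm, and FGF4 also primes ESC for differentiation. Basic FGF (bFGF, FGF2) is a ligand commonly added to culture media.

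The libraries differed in depth and in the levels of cell type markers. Sequencing depth, relative to ESC replicate 1, ran from 0.403 (CiPSC line C3) to 1.577 (CiPSC line N4), and 11240 to 13982 genes reached 1 FPKM. The summed FPKM of 8 XEN markers was 1745 to 3920 in XEN libraries and 910.6 to 1828 in cells on the way. It was 42.1 to 91.0 in MEF and 6.73 to 16.4 in pluripotent libraries. Most of the MEF sum came from Dab2 (30.0 and 27.8 FPKM) and Pdgfra (8.22 and 56.5 FPKM). The sum of 8 pluripotency markers was 4385 to 5485 in CiPSC and ESC and at most 51.7 in XEN. It was 195.9 in day 16 replicate 1, 165.8 at day 20, 633 at day 26 and 343.6 at day 28. At day 26 and day 28 all 8 reached 1 FPKM, but Dppa5a alone had 558.4 and 249.2 FPKM. Pou5f1 had 18.9 and 6.23 FPKM there, and Nanog 2.79 and 1.17 FPKM. Fibroblast markers (9 genes) summed to 872.8 at day 12, 251.6 and 483.9 at day 16, 87.6 at day 20, 142.6 at day 26 and 11.0 at day 28, against 2849 and 10452 in MEF. They summed to 1.82 in CeXEN replicate 1, 42.7 in CeXEN replicate 2, 1.76 and 2.0 in eXEN, 4.64 to 78.4 in CiPSC and 3.35 to 3.49 in ESC. Of the 9 fibroblast markers, all 9 reached 1 FPKM at day 12, day 16 and day 26 and in MEF, 6 in CeXEN replicate 2, 1 to 6 in CiPSC, and 0 in the other XEN libraries. Macrophage markers (6 genes) summed to 41.0 to 117.3 in MEF and 2.02 to 19.2 in the other libraries. Trophoblast markers (5 genes) summed to 1.83 to 9.7 in XEN, 14.3 to 70.4 in cells on the way and 0.944 to 4.66 in MEF. Their sum in pluripotent libraries was 36.2 to 80.6, mostly Tfap2c (27.9 to 74.6 FPKM), with Elf5 at most 0.141 FPKM. In cells on the way Tfap2c had at most 1.36 FPKM, and the other trophoblast markers made up most of the sum. The part of other cells in the results was not tested. In bulk RNA, fewer cells of a type and less RNA per cell cannot be told apart.

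Fgf3 (ENSMUSG00000031074, mm10 chr7:144838083-144844436) and Fgf4 (ENSMUSG00000050917, chr7:144861386-144865243) lie on the same strand, with 16949 bases between them. The receptor most abundant in most XEN libraries, Fgfr4 (ENSMUSG00000005320), lies at chr13:55152640-55168759. The sequences just upstream of the annotated exons of these 3 genes are shown because the genes had the 3 largest differences of the 10 between XEN and pluripotent cells. They come from RefSeq (build GRCm38.p6, plus strand) and cover chr7:144861136-144861385 for Fgf4, chr7:144838362-144838594 for Fgf3 and chr13:55152568-55152639 for Fgfr4, the window of Fgf3 falling inside the longer locus given in the files. Capitals mark matches, on either strand, to GATAA (1 form of the site bound by GATA factors), ATGCAAAT (the octamer bound by POU factors) or GGGCGG (the GC box). Other forms of the GATA site, such as GATAG, were neither marked nor counted.
Fgf4: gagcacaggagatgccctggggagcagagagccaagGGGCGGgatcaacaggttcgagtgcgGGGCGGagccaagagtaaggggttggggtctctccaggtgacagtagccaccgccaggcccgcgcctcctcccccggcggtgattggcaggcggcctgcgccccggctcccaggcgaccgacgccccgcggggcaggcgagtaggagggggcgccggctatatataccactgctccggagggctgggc
Fgf3: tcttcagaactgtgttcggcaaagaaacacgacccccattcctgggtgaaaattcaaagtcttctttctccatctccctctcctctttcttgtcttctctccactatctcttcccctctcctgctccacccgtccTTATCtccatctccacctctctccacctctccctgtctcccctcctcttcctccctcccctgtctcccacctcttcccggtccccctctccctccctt
Fgfr4: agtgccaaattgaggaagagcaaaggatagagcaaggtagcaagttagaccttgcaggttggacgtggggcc
The Fgf4 window of 250 bases held 2 GC boxes, where 32.7% of 32851 windows of that length held at least 1, and its GC content was 71.2%. The Fgf3 window of 233 bases held 1 GATAA match, read as TTATC on the plus strand, found in 21.6% of windows of that length, and its GC content was 54.9%. The Fgfr4 window of 72 bases held none of the 3 motifs, and its GC content was 51.4%. The octamer matched in none of these windows and in 1.6% of windows of 250 bases. The motifs were chosen with the sequences in view and overlap no other match here.

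The 2 ligands divided the cells. Fgf4 was high in pluripotent cells and near 0 elsewhere, whereas Fgf3 was high in XEN cells and in cells on the way and low in pluripotent cells. Fgf4 was listed at 0 FPKM in both CeXEN libraries and in eXEN replicate 1 and at 0.122 FPKM in eXEN replicate 2. In the pluripotent cells it had 43.2, 42.9, 55.0, 63.1, 74.6, 104.3 and 95.3 FPKM in the CiPSC lines (in the order C1 to C3, G1, G3, N4, N6), and 56.6 and 118.3 FPKM in ESC. No XEN library came near the lowest pluripotent library. The difference, XEN minus pluripotent, was -6.17 ± 0.27 on the log2(FPKM + 1) scale (SE, adjusted p = 2.18e-10), a scale on which low genes appear to change less than they do and that is not a fold where a group is listed at 0.

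Fgf4 stayed at 0 FPKM in 5 of the 6 libraries from day 12 to day 28 and had 0.0278 FPKM at day 28, while both MEF libraries were listed at 0. The day 26 and day 28 libraries, whose pluripotency markers summed to 633 and 343.6 FPKM, held Fgf4 at 0 and 0.0278 FPKM. Most of these sums was Dppa5a (558.4 and 249.2 FPKM), while Nanog had 2.79 and 1.17 FPKM. CiPSC exceeded day 16 cells by 6.04 ± 0.33 on the log2(FPKM + 1) scale (adjusted p = 6.09e-09). CiPSC averaged 68.4 ± 24.3 FPKM (SD, n = 7) and ESC 87.5 ± 43.6 FPKM (SD, n = 2), groups that overlapped (-0.33 ± 0.33, adjusted p = 0.853).

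Fgf3 had 49.8 and 44.2 FPKM in CeXEN and 16.1 and 20.0 FPKM in eXEN. It had 0.121 to 2.25 FPKM, with a median of 1.0, in CiPSC, and 0.215 and 1.3 FPKM in ESC. XEN and pluripotent libraries did not overlap, and Fgf3 was 4.08 ± 0.30 higher in XEN on the log2 scale (adjusted p = 6.38e-08). On the way, Fgf3 had 3.77 FPKM at day 12, 10.8 and 23.3 at day 16, 10.01 at day 20, 10.7 at day 26 and 12.3 at day 28, and both MEF libraries were listed at 0. Fgf3 was thus measurable at the first time sampled. The day 16 libraries exceeded MEF by 4.09 ± 0.47 (adjusted p = 2.29e-05). Day 16 averaged 17.1 ± 8.84 FPKM and XEN 32.5 ± 16.9 FPKM (SD, n = 2 and 4), a difference of -0.83 ± 0.41 that did not pass the test (adjusted p = 0.176). CiPSC were lower than day 16 cells (-3.15 ± 0.38, adjusted p = 1.27e-05). By mean level the order was CeXEN (47.0 FPKM), eXEN (18.0), day 16 (17.1), day 28, day 26, day 20, day 12, CiPSC (1.03), ESC (0.756) and MEF, in which eXEN overlapped day 16 and CiPSC overlapped ESC. CeXEN exceeded eXEN by 1.34 ± 0.47, which missed the threshold (adjusted p = 0.106) although the libraries did not overlap.

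**Figure D1:**
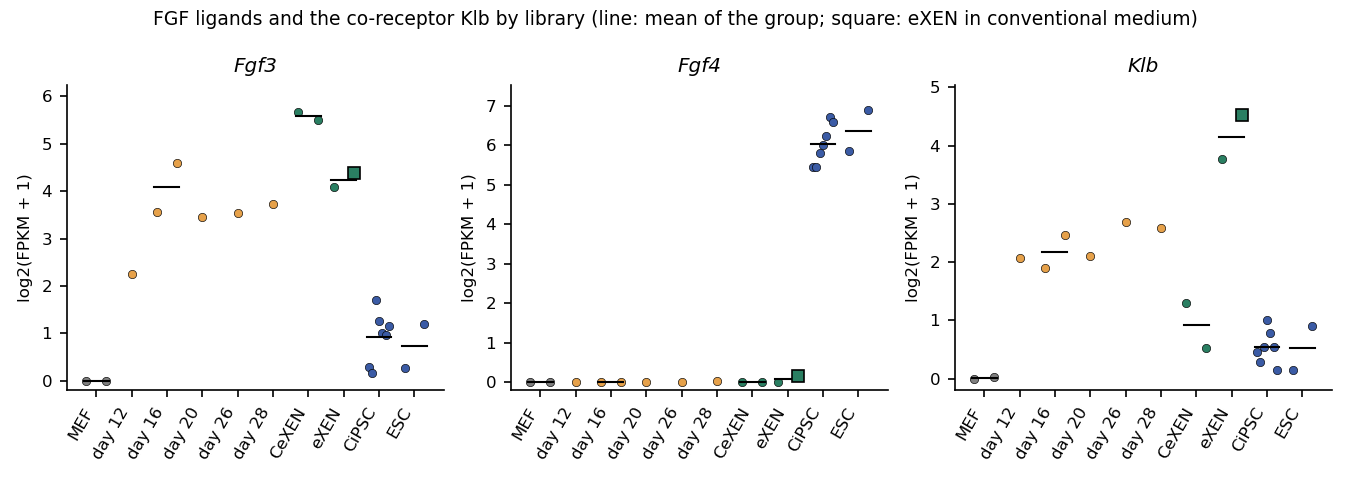
Fgf3, Fgf4 and Klb in every library, as log2(FPKM + 1), by group from MEF through day 28 to XEN, CiPSC and ESC. Points are libraries, lines are group means and the square is eXEN replicate 2 in traditional medium. Fgf4 lies between 42.9 and 118.3 FPKM in the 9 pluripotent libraries and at or below 0.122 FPKM elsewhere, while Fgf3 lies between 3.77 and 49.8 FPKM in XEN cells and cells on the way.

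The added bFGF corresponds to the product of Fgf2, and the cells' own Fgf2 transcript was low outside MEF. Fgf2 had 1.96 FPKM at day 12, 0.842 and 1.2 at day 16, 1.61 at day 20, 0.567 at day 26 and 0.755 at day 28, against 8.38 and 5.9 FPKM in MEF. It was lower at day 16 than in MEF (-2.0 ± 0.28, adjusted p = 0.000132). In the 3 XEN libraries whose labels name bFGF it had 1.56, 0.831 and 0.608 FPKM, and it was listed at 0 in eXEN replicate 2, so the libraries given bFGF had at most 1.56 FPKM of the transcript.

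Of the other ligands, Fgf7, Fgf13 and Fgf5 had their highest levels in MEF and Fgf17 in CiPSC. Fgf7, a mesenchymal ligand of the FGFR2 form of epithelia, had 8.18 FPKM at day 12, 6.05 and 3.79 at day 16, 2.89 at day 20, 4.29 at day 26 and 0.255 at day 28, against 33.5 and 10 FPKM in MEF. Fgf7 was lower at day 16 than in MEF (-1.75 ± 0.41, adjusted p = 0.00536), higher at day 16 than in XEN (2.32 ± 0.35, adjusted p = 0.000317) and lower in CiPSC than at day 16 (-2.17 ± 0.33, adjusted p = 9.51e-05). The sum of fibroblast markers also went down over these days, and its part in the Fgf7 values was not tested. Fgf13, an intracellular member of the family that does not act through the receptors, averaged 0.366 FPKM at day 16 and 6.66 FPKM in MEF (-2.47 ± 0.32, adjusted p = 5.68e-05). Fgf5 likewise was lower at day 16 than in MEF (-1.09 ± 0.16, adjusted p = 0.000136), with at most 1.35 FPKM in either group. Fgf17, of the family of Fgf8, ran from 3.66 to 29.2 FPKM in CiPSC and had 2.38 and 2.62 FPKM in ESC, against at most 0.0405 FPKM in XEN. It was lower in XEN than in pluripotent cells (-2.50 ± 0.44, adjusted p = 0.000228). Fgf1, which can bind all FGF receptors, reached its highest level of 5.11 FPKM at day 20.

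Different receptors led in different cells. Fgfr1 (ENSMUSG00000031565, chr8:25513654-25575714) led in MEF, ESC and CiPSC, and Fgfr4 led from day 16 onwards and in the XEN libraries, except in eXEN replicate 2, where Fgfr3 led. Fgfr4, a receptor known from liver and endoderm, had 48.6 and 46.2 FPKM in CeXEN and 55.9 and 40.9 FPKM in eXEN. It had 0.362 to 1.52 FPKM, with a median of 0.962, in CiPSC, and 0.851 and 0.912 FPKM in ESC. XEN libraries lay far above all pluripotent libraries (4.70 ± 0.20 on the log2 scale, adjusted p = 1.43e-10). Fgfr4 had 20.2 FPKM at day 12, 47.7 and 34.4 at day 16, 49.5 at day 20, 54.8 at day 26 and 57.1 at day 28, against 0.321 and 0.0433 FPKM in MEF. Day 16 exceeded MEF by 5.14 ± 0.30 (adjusted p = 3.89e-08). Day 16 averaged 41.0 ± 9.44 FPKM and XEN 47.9 ± 6.21 FPKM (SD, n = 2 and 4), and the difference was within the spread (-0.23 ± 0.26, adjusted p = 0.607). CeXEN and eXEN also overlapped (-0.01 ± 0.30, adjusted p = 1.0). CiPSC were lower than day 16 cells (-4.49 ± 0.24, adjusted p = 5.41e-09).

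Fgfr1, the main receptor of mesenchyme and of ESC, ran opposite to Fgfr4. It had 2.3 and 8.77 FPKM in CeXEN and 2.82 and 0.27 FPKM in eXEN, against 30.5 to 37.9 FPKM with a median of 32.9 in CiPSC and 26.0 and 31.9 FPKM in ESC. The groups did not overlap, and XEN was lower by 3.18 on the log2 scale (-3.18 ± 0.32, adjusted p = 1.42e-06). The XEN library with the most Fgfr1, CeXEN replicate 2, also had the most fibroblast marker RNA of the 4, 42.7 FPKM in sum against 1.76 to 2.0 in the other 3, and the part of that RNA in Fgfr1 was not tested. Without that library the difference was -3.57 (adjusted p = 1.01e-06). Fgfr1 had 19.8 FPKM at day 12, 9.96 and 23.2 at day 16, 6.53 at day 20, 14.5 at day 26 and 4.65 at day 28, against 107.4 and 76.7 FPKM in MEF. Each library on the way had less than either MEF library, and day 16 was lower than MEF (-2.49 ± 0.50, adjusted p = 0.00202). Day 16 was higher than XEN (2.20 ± 0.44, adjusted p = 0.00243), but without day 16 replicate 2, whose fibroblast marker sum was 483.9 FPKM against 251.6 in replicate 1, the difference was 1.63 and missed the threshold (adjusted p = 0.0576). CiPSC exceeded day 16 by 1.08 ± 0.40 (adjusted p = 0.039), a call that was lost without day 16 replicate 1 (0.51, adjusted p = 0.492) and under 9 other alternatives.

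Fgfr2 (ENSMUSG00000030849, chr7:130162451-133123350 on the minus strand), whose ligand-binding forms serve epithelium and mesenchyme, was lowest in XEN. In the annotation used here its model spans 2960900 bases and overlaps 69 other genes, 30 of them protein-coding. Its FPKM may therefore be less certain than that of the other receptors, which was not tested. It had 0.501 and 1.06 FPKM in CeXEN and 0.275 and 0.606 FPKM in eXEN, against 1.12 to 3.7 FPKM with a median of 2.75 in CiPSC and 4.36 and 3.81 FPKM in ESC. The lower quantifier bound of all 4 XEN values was 0. XEN lay below pluripotent cells (-1.38 ± 0.27, adjusted p = 0.000595), and with quantile normalization the difference shrank to -0.89, under the threshold of 1. Fgfr2 had 22.8 FPKM at day 12, 8.51 and 10.4 at day 16, 3.37 at day 20, 2.98 at day 26 and 3.44 at day 28, against 23.0 and 9.21 FPKM in MEF. Day 12 was thus within the range of MEF, and the later single libraries were below it. Day 16 did not differ from MEF beyond the threshold (-0.59 ± 0.42, adjusted p = 0.334) and was higher than XEN (2.71 ± 0.37, adjusted p = 0.000119). CiPSC were lower than day 16 (-1.63 ± 0.34, adjusted p = 0.00122).

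Fgfr3 (ENSMUSG00000054252, chr5:33721724-33737068), a receptor best known as a brake on bone growth, had its highest levels in XEN, and far the highest in 1 library. It had 7.21 and 7.34 FPKM in CeXEN and 5.56 FPKM in eXEN replicate 1, all 3 grown with bFGF, and 65.0 FPKM in eXEN replicate 2, grown in traditional medium, where the quantifier's bounds were 61.6 and 68.4 FPKM. It had 1.21 to 5.53 FPKM, with a median of 1.66, in CiPSC, and 1.39 and 2.01 FPKM in ESC. The XEN libraries did not overlap the pluripotent ones, although eXEN replicate 1 exceeded CiPSC line C3 only slightly. XEN exceeded pluripotent cells by 2.15 ± 0.49 (adjusted p = 0.00198), and by 1.32 (adjusted p = 0.00654) without eXEN replicate 2. Cells on the way had 0.788 to 1.51 FPKM, against 0.871 and 0.318 FPKM in MEF, and day 16 did not differ from MEF beyond the spread (0.20 ± 0.77, adjusted p = 0.915). Day 16 was lower than XEN (-2.87 ± 0.67, adjusted p = 0.00713), a call lost without either day 16 library, at -2.86 without replicate 1 (adjusted p = 0.055) and -2.88 without replicate 2 (adjusted p = 0.05, just above the threshold).

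**Figure D2:**
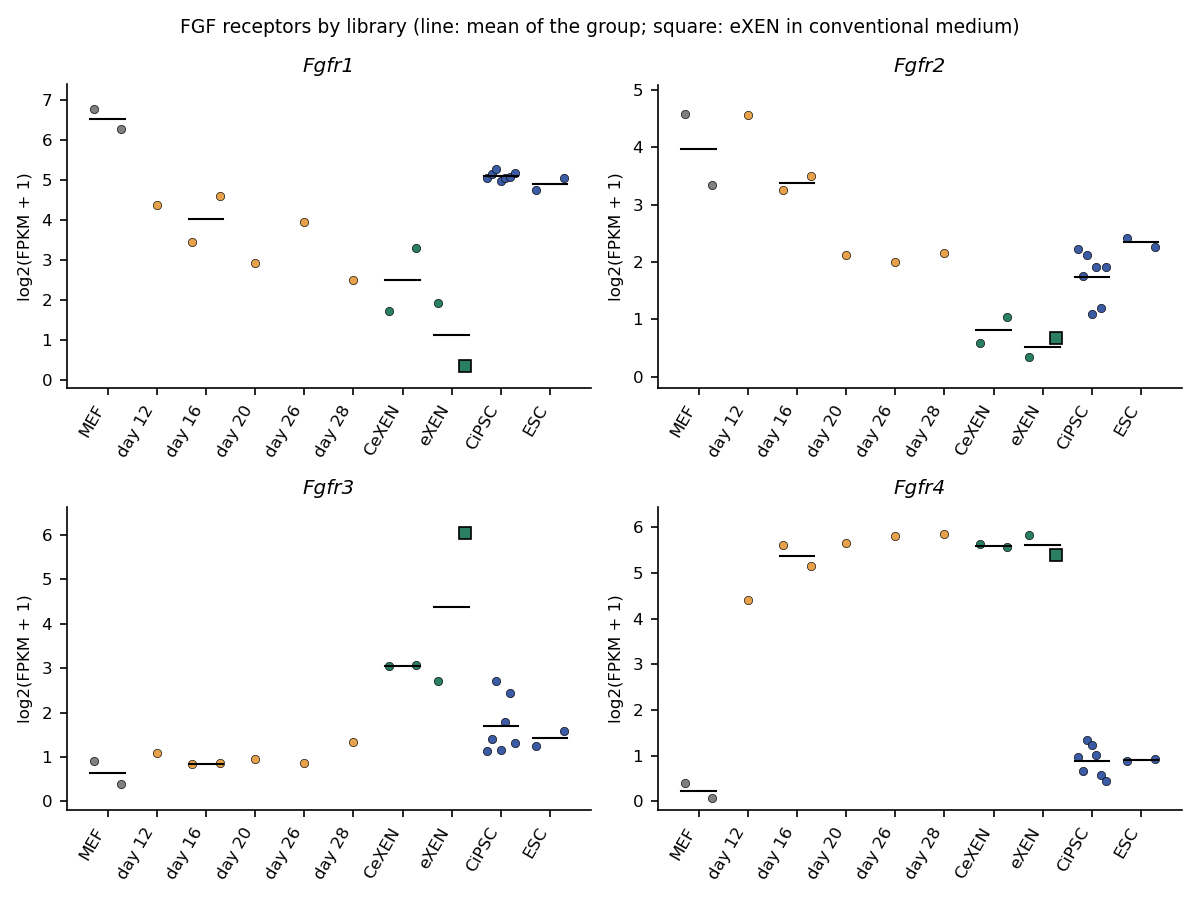
Fgfr1, Fgfr2, Fgfr3 and Fgfr4 in every library, as log2(FPKM + 1), by group, with group means as lines and eXEN replicate 2 in traditional medium as a square. Fgfr4 lies between 20.2 and 57.1 FPKM in cells on the way and XEN cells and at or below 1.52 FPKM in the other libraries, and the Fgfr3 level of 65.0 FPKM stands apart.

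The receptor make-up of a library was summed as the share of each receptor in the total FPKM of Fgfr1 to Fgfr4. These are shares of bulk RNA and do not give the make-up of single cells. In MEF, Fgfr1 made up 85.3% ± 5.16 and Fgfr2 14.1% ± 4.82 (SD, n = 2). In the day 12 library Fgfr2, Fgfr4 and Fgfr1 stood close together, with 35.7%, 31.6% and 30.9%. The Fgfr2 share of that library carries the limit of its gene model given above. The fibroblast marker sum of that library was 872.8 FPKM, and the part of fibroblast RNA in its shares was not tested. The Fgfr4 share was 71.2% and 49.9% at day 16, 82.0% at day 20, 75.0% at day 26 and 85.6% at day 28. Every library from day 16 to day 28 therefore had Fgfr4 in front of the other receptors. Fgfr4 made up 82.9% and 72.9% in CeXEN and 86.6% in eXEN replicate 1. In eXEN replicate 2 it made up 38.3%, behind Fgfr3 with 60.9%. Fgfr1 made up 78.5% to 89.1% in CiPSC (85.2% ± 3.70, SD, n = 7) and 79.7% and 82.6% in ESC, so Fgfr1 led in both pluripotent groups. The summed receptor level was 58.7 to 64.5 FPKM in the 3 XEN libraries with bFGF, 106.8 FPKM in eXEN replicate 2, 60.3 to 73.1 FPKM in cells on the way, 34.2 to 48.3 FPKM in CiPSC, 32.6 to 38.7 FPKM in ESC and 86.3 to 131.7 FPKM in MEF. Shares were not tested, and gene FPKM does not separate the receptor isoforms that differ in ligand binding.

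**Figure D3:**
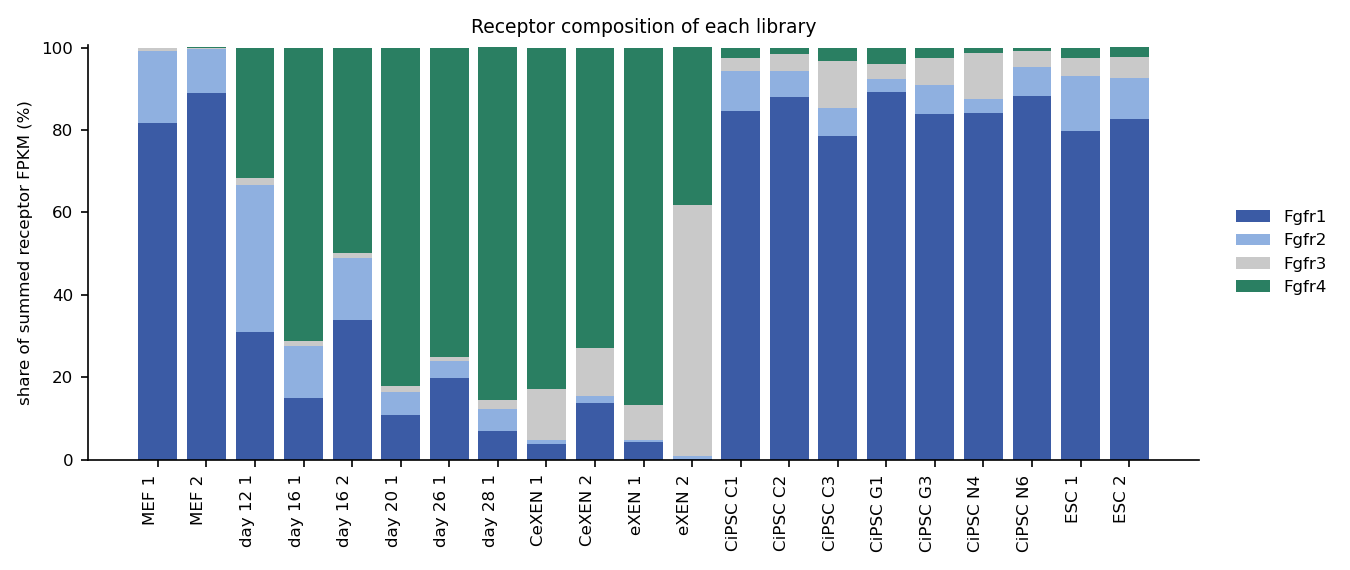
Share of Fgfr1, Fgfr2, Fgfr3 and Fgfr4 in the summed receptor FPKM, in percent, for each of 21 libraries, as stacked bars from MEF to ESC. Fgfr1 fills 78.5% to 89.1% of the bars of MEF, CiPSC and ESC, Fgfr4 fills 72.9% to 86.6% of those of CeXEN and eXEN replicate 1, and Fgfr3 fills 60.9% of that of eXEN replicate 2.

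With 1 eXEN library per medium, the medium cannot be told apart from the culture or the library. Only the difference between these 2 libraries is described. In stage 1 medium with bFGF (replicate 1), Fgfr1 had 2.82 FPKM, Fgfr3 5.56 FPKM and Fgfr4 55.9 FPKM, against 0.27, 65.0 and 40.9 FPKM of the same receptors in traditional medium (replicate 2). Spry2 had 63.4 FPKM, Spry4 0.678 FPKM and Dusp6 0.769 FPKM with bFGF, against 108.3, 3.7 and 1.46 FPKM in traditional medium. These 3 feedback genes were thus higher in the library without bFGF in its label. So were Dusp4 (16.4 against 5.91 FPKM), Dusp5 (4.91 against 2.66), Il17rd (11.3 against 4.32) and Spred3 (0.693 against 0.421). Other feedback genes were lower there: Spry1 (0.102 against 1.21 FPKM), Spry3 (0.334 against 1.24), Spred1 (3.98 against 8.2), Spred2 (17.3 against 22.1) and Dusp7 (2.26 against 9.23). The label of replicate 1 also names VC6TF, so bFGF cannot be told apart from it. The quantifier's bounds of Fgfr1 in replicate 2 were 0 and 0.869 FPKM.

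Klb (ENSMUSG00000029195, chr5:65348386-65384003) encodes beta-Klotho, the co-receptor that lets the endocrine ligands FGF15 and FGF21 act through FGFR4 and FGFR1. It had 1.47 and 0.448 FPKM in CeXEN and 12.6 and 22.0 FPKM in eXEN, against 0.115 to 1.01 FPKM with a median of 0.459 in CiPSC and 0.115 and 0.872 FPKM in ESC. XEN was higher than pluripotent cells (2.0 ± 0.23, adjusted p = 6.09e-06), but CeXEN replicate 2 lay within the pluripotent range and the high values were those of eXEN. CeXEN was lower than eXEN (-3.23 ± 0.37, adjusted p = 0.000103). Klb had 3.22 FPKM at day 12, 2.72 and 4.53 at day 16, 3.28 at day 20, 5.44 at day 26 and 4.97 at day 28, against 0 and 0.0207 FPKM in MEF. The cells on the way thus lay between CeXEN and eXEN. Day 16 exceeded MEF by 2.17 ± 0.37 (adjusted p = 0.00053), and CiPSC were lower than day 16 (-1.64 ± 0.29, adjusted p = 0.000389). The endocrine ligands themselves were scarce: Fgf15 had at most 0.0434 FPKM in XEN and in cells on the way, and Fgf21 at most 0.188 FPKM there.

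The 3 feedback genes differed among themselves. Spry2 (ENSMUSG00000022114, chr14:105891949-105896819), a Sprouty inhibitor of receptor signalling, was expressed throughout, with 59.1 and 40.1 FPKM in CeXEN, 63.4 and 108.3 FPKM in eXEN, 20.4 to 70.0 FPKM with a median of 44.2 in CiPSC and 76.1 and 33.2 FPKM in ESC. It had 42.6 FPKM at day 12, 32.3 and 28.4 at day 16, 32.2 at day 20, 24.4 at day 26 and 23.3 at day 28, against 41.8 and 20.8 FPKM in MEF. Its groups overlapped in 4 of 6 comparisons, and none of the differences passed the test, XEN minus pluripotent being 0.47 ± 0.36 (adjusted p = 0.297) and day 16 minus XEN -1.05 ± 0.49 (adjusted p = 0.152).

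Spry4 (ENSMUSG00000024427, on chromosome 18), a second Sprouty inhibitor, varied widely within groups. It had 6.11 and 1.25 FPKM in CeXEN and 0.678 and 3.7 FPKM in eXEN. Among pluripotent cells it had 25.3, 29.2, 9.53, 13.47, 2.0, 1.83 and 5.42 FPKM in the CiPSC lines in that same line order, and 27.2 and 0.973 FPKM in ESC. The 2 ESC libraries, which differ in strain, thus marked nearly the whole range of the pluripotent values. The difference of XEN from pluripotent cells was -1.32 ± 0.82 (adjusted p = 0.189), and it passed the test without ESC replicate 2 (-2.28, adjusted p = 0.0319). Spry4 had 5.02 FPKM at day 12, 1.14 and 4.12 at day 16, 0.92 at day 20, 1.88 at day 26 and 1.08 at day 28, against 17.3 and 5.61 FPKM in MEF, and day 16 minus MEF was -1.73 ± 1.28 (adjusted p = 0.352).

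The immediate-early gene Egr1, whose transcription is switched on by ERK within minutes, was looked at after its values were seen. It had 46.9 and 48.6 FPKM in CiPSC lines C1 and C2 and 0.088 to 0.467 FPKM in the other 5 lines, and 31.3 and 3.84 FPKM in ESC. The libraries with the most Egr1 among pluripotent cells, C1, C2 and ESC replicate 1, were also those with the most Spry4. Fibroblast markers summed to 4.64 and 5.02 FPKM in C1 and C2 and to 41.6 to 78.4 FPKM in the other CiPSC lines, and the part of feeder or fibroblast RNA in these values was not tested.

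Dusp6 (ENSMUSG00000019960, chr10:99263231-99267488) had 4.42 and 3.07 FPKM in CeXEN and 0.769 and 1.46 FPKM in eXEN, against 3.82 to 15.2 FPKM with a median of 11.5 in CiPSC and 7.18 and 2.92 FPKM in ESC. XEN was lower (-1.29 ± 0.37, adjusted p = 0.00903), but the groups overlapped, and the call was lost with quantile normalization (-0.91, adjusted p = 0.0635) and without ESC replicate 1 (-1.02, adjusted p = 0.0566). Dusp6 had 22.1 FPKM at day 12, 6.75 and 12.9 at day 16, 4.12 at day 20, 9.45 at day 26 and 1.91 at day 28, against 28.8 and 10.7 FPKM in MEF. Its lowest value on the way came from the latest library. Day 16 was higher than XEN (1.73 ± 0.51, adjusted p = 0.0253), a call lost under 5 alternatives, among them leaving out day 16 replicate 2 (1.31, adjusted p = 0.225), CeXEN replicate 2 (1.63, adjusted p = 0.0572) or eXEN replicate 1 (1.61, adjusted p = 0.0544). Day 16 did not differ from MEF beyond the threshold (-0.85 ± 0.58, adjusted p = 0.314).

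**Figure D4:**
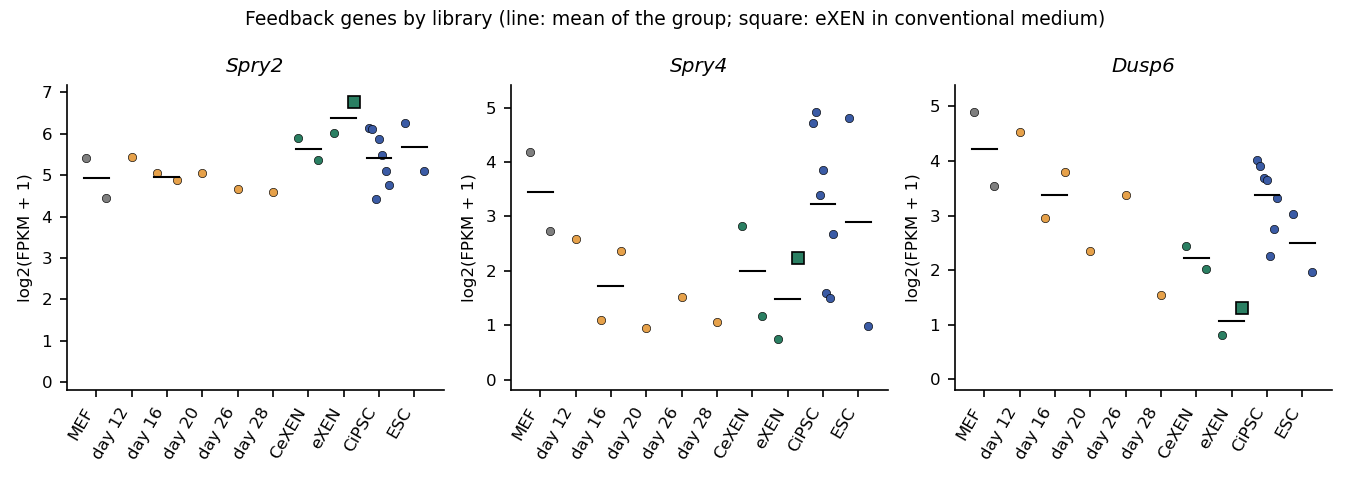
Spry2, Spry4 and Dusp6 in every library, as log2(FPKM + 1), by group, with group means as lines and eXEN replicate 2 in traditional medium as a square. Spry2 lies between 20.4 and 108.3 FPKM in every library, whereas Spry4 spreads from 0.973 to 29.2 FPKM within the pluripotent libraries.

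Counted together, 8 of the 10 genes were called between XEN and pluripotent cells, at an adjusted p under 0.05 and a log2 difference of at least 1, with 4 higher in XEN (Fgf3, Fgfr3, Fgfr4 and Klb) and 4 lower (Fgf4, Fgfr1, Fgfr2 and Dusp6), against 29.6% of all genes tested (10.9% higher and 18.6% lower). Their median difference was -0.41, beside -0.20 over all genes tested. Day 16 against MEF gave 4 calls, 3 higher (Fgf3, Fgfr4 and Klb) and 1 lower (Fgfr1), with 20.7% of all genes called (13.3% higher and 7.41% lower), and the medians were 0.02 for the 10 genes and 0.22 for all genes. Day 16 against XEN gave 4 calls, 3 higher (Fgfr1, Fgfr2 and Dusp6) and 1 lower (Fgfr3), with 13.9% of all genes called (12% higher and 1.87% lower), and the medians were -0.13 and 0.17. CiPSC against day 16 gave 6 calls, with Fgf4 and Fgfr1 higher and Fgf3, Fgfr2, Fgfr4 and Klb lower, with 29.9% of all genes called (13% higher and 17% lower), and the medians were 0.22 and -0.02. CeXEN against eXEN gave 1 call, Klb, which was lower, with 6.47% of all genes called (4.01% higher and 2.46% lower), and the medians were 0.14 and 0.06. These comparisons share libraries, so their calls are not independent. When the fit held nothing but the 2 groups compared, day 16 against MEF gave 0 calls, with adjusted p from 0.0596 for Fgfr4 to 0.113 for Fgfr1.

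Between CiPSC and ESC, none of the 10 genes was called by limma, with 0.0601% of all genes called (0.036% higher and 0.024% lower), and 0 of the 10 genes, against 1412 of all genes, had an unadjusted p under 0.05. The differences nearest to the threshold were 0.87 ± 0.47 for Dusp6 (adjusted p = 0.652) and -0.60 ± 0.34 for Fgfr2 (adjusted p = 0.667). Fgfr2 had 1.12 to 3.7 FPKM in CiPSC and 4.36 and 3.81 FPKM in ESC, which did not overlap. The quantifier's bounds did overlap, at 2.34 to 5.05 FPKM in line C1 against 1.92 to 6.80 and 2.11 to 5.52 FPKM in ESC.

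The linear trend over 16 days, which used the 6 libraries of cells on the way, called 0 genes at the adjusted threshold (0% of all genes), with 3349 genes and 3 of the 10 at an unadjusted p under 0.05. Those 3 were Fgfr2 with -2.34 ± 0.54 (adjusted p = 0.176), Spry2 with -0.70 ± 0.18 (adjusted p = 0.184) and Fgfr4 with 1.17 ± 0.36 (adjusted p = 0.195). The smallest adjusted p of any gene was 0.175. Over the same days the fibroblast marker sum was 872.8 FPKM at day 12 and 11.0 FPKM at day 28, and its part in these slopes was not tested.

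**Figure D5:**
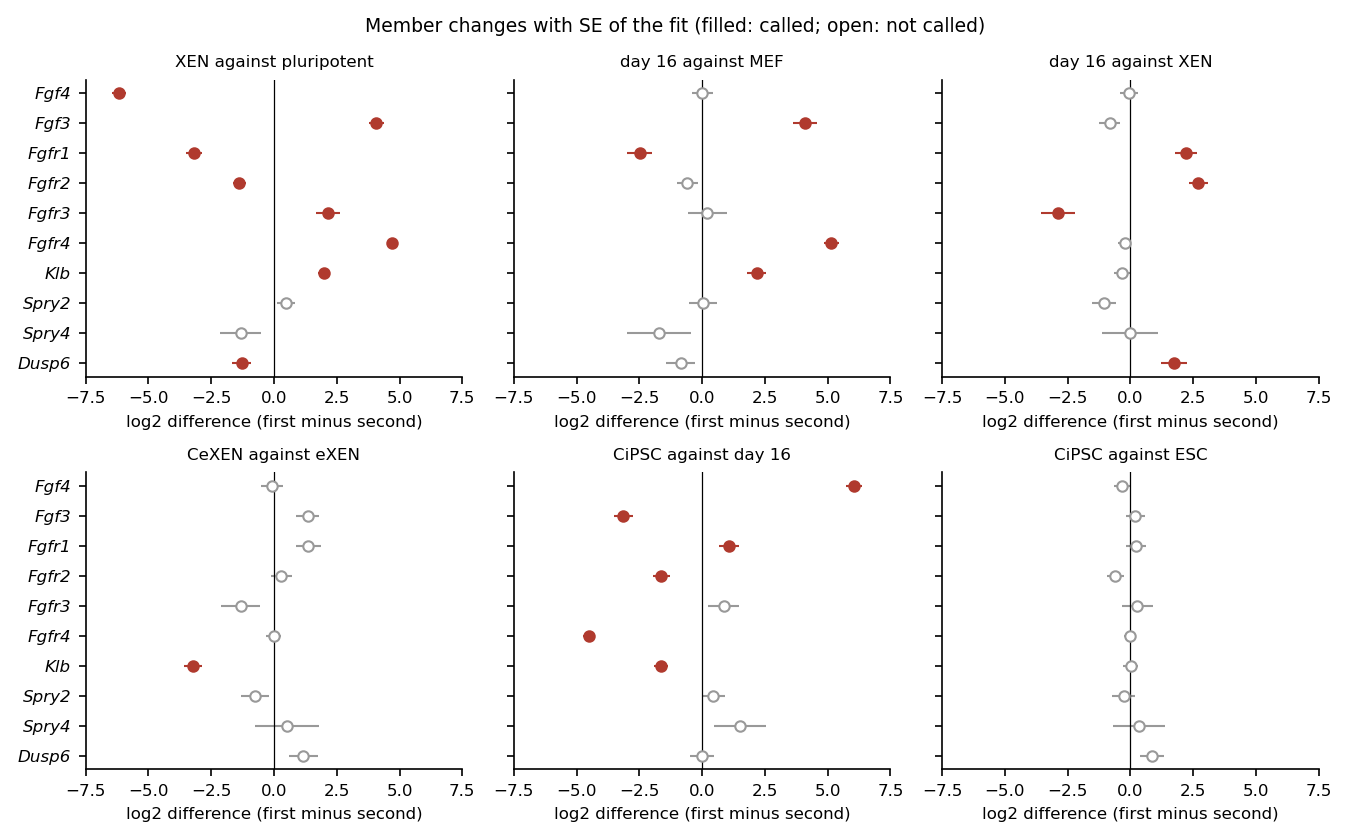
Log2 differences of the 10 genes in 6 comparisons, first group minus second, with the SE of the fit as bars. Filled points were called and open points were not. In the panel of XEN against pluripotent cells 8 points are filled, from -6.17 for Fgf4 to 4.70 for Fgfr4, and in that of CiPSC against ESC none is.

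In the wider pathway, calls were spread over both directions. Of 14 FGF ligands tested of 22 listed, 1 was higher in XEN than in pluripotent cells (Fgf3) and 3 were lower (Fgf4, Fgf13 and Fgf17). Fgf3 and Fgf4 are among the 10 genes. Of 8 receptors, co-receptors and binding proteins tested, 4 were higher and 3 lower. Of all genes, 10.9% were higher and 18.6% lower, and the median was -0.20, against list medians of -0.18 for the ligands and 0.97 for the receptors and binding proteins, of which 5 are among the 10 genes. The carrier Fgfbp1, which releases FGFs from the matrix, was lower in XEN (-2.28 ± 0.52, adjusted p = 0.00195), and its relative Fgfbp3 was higher (1.30 ± 0.36, adjusted p = 0.00683) with overlapping groups. The decoy-like receptor Fgfrl1, which lacks the kinase domain, averaged 4.17 FPKM in CiPSC and 18.7 FPKM at day 16 (-1.88 ± 0.49, adjusted p = 0.00621).

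Of the 21 genes of the ERK cascade, 2 were higher and 1 was lower in XEN than in pluripotent cells, beside 10.9% and 18.6% of all genes, and the list median of -0.24 was near the -0.20 of all genes. The 3 called genes encode adaptor or docking proteins. Frs2 averaged 29.9 FPKM in XEN and 7.83 FPKM in pluripotent cells (1.70 ± 0.18, adjusted p = 1.82e-06), and Frs3 averaged 19.0 FPKM in XEN and 7.05 FPKM in pluripotent cells (1.47 ± 0.28, adjusted p = 0.000492). The docking protein Gab1 averaged 16.9 FPKM in XEN and 65.9 FPKM in pluripotent cells (-2.23 ± 0.26, adjusted p = 5.78e-06). Frs3 was also higher at day 16 than in MEF (3.03 ± 0.44, adjusted p = 0.000157), where Gab1 was higher too (1.36 ± 0.41, adjusted p = 0.0226, with 23.0 and 7.24 FPKM at day 16 overlapping 2.6 and 7.39 FPKM in MEF) and Rasa1, which turns RAS off, was lower (-1.16 ± 0.27, adjusted p = 0.00514). Day 16 against XEN gave 0 calls in this list. CiPSC against day 16 gave 2 higher, Gab1 (2.22 ± 0.33, adjusted p = 7.75e-05) and the kinase Braf (1.06 ± 0.20, adjusted p = 0.000612), and 1 lower, Frs3 (-1.29 ± 0.35, adjusted p = 0.00796). CeXEN against eXEN gave 1 higher, Gab1 (1.92 ± 0.41, adjusted p = 0.00992), and 1 lower, Braf (-1.56 ± 0.25, adjusted p = 0.00147).

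Of 22 feedback and target genes of FGF and ERK, 4 were higher and 6 lower in XEN than in pluripotent cells, beside 10.9% and 18.6% of all genes, with a list median of -0.43 beside -0.20 over all genes. The list includes Spry2, Spry4 and Dusp6 of the 10 genes, and Dusp6 is counted among the 6 lower. The ETS factors Etv5 and Etv4, transcriptional targets of FGF signalling, were among the lower ones. Etv5 had 6.12 and 2.63 FPKM in CeXEN and 1.21 and 3.09 FPKM in eXEN, against 82.1 to 126.1 FPKM in CiPSC and 108.9 and 87.1 FPKM in ESC (-4.68 ± 0.24, adjusted p = 1.2e-09). Etv4 averaged 3.25 FPKM in XEN and 54.2 FPKM in pluripotent cells (-3.65 ± 0.51, adjusted p = 3.36e-05). Flrt3, a membrane protein that can bind FGF receptors, ran the other way, with 28.6 to 79.7 FPKM in XEN and 0.1 to 0.866 FPKM in pluripotent cells (5.01 ± 0.23, adjusted p = 5.05e-10). Etv5, Etv4 and Flrt3 showed the same contrast between CiPSC and day 16, at 3.36 ± 0.30, 2.74 ± 0.64 and -4.26 ± 0.29 (adjusted p = 7.19e-07, 0.00287 and 5.62e-08). In that comparison 4 of the 22 genes were higher and 5 lower, beside 13% and 17% of all genes.

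Day 16 cells had 1 higher and 4 lower of these 22 genes than MEF, beside 13.3% and 7.41% of all genes, Flrt3 being the higher one (2.56 ± 0.37, adjusted p = 0.000138) and Spry1, another Sprouty inhibitor, among the lower ones (-1.35 ± 0.36, adjusted p = 0.0117). They had 7 higher and 1 lower than XEN, beside 12% and 1.87% of all genes, with a list median of 0.64 beside 0.17 over all genes. Cyclin D1 (Ccnd1), which drives entry into the cell cycle, averaged 73.6 FPKM at day 16 and 9.04 FPKM in XEN (3.93 ± 0.57, adjusted p = 0.000225), and Fosl1, an AP-1 subunit, averaged 11.1 FPKM at day 16 and 0.585 FPKM in XEN (2.99 ± 0.65, adjusted p = 0.00468). Fos, another AP-1 subunit, was the lower one (-1.98 ± 0.61, adjusted p = 0.0341), with overlapping groups. Between CeXEN and eXEN, where 4.01% of all genes were higher and 2.46% lower, 2 of the 22 were higher, Ccnd1 (3.33 ± 0.66, adjusted p = 0.00671) and Spry1 (2.44 ± 0.36, adjusted p = 0.000808), and 1 was lower, the FGF antagonist Il17rd (-2.29 ± 0.43, adjusted p = 0.00438). Fibroblast markers were also higher at day 16 than in XEN, and their part in these differences was not tested. CiPSC against ESC and the trend gave 0 calls in each of the 4 lists.

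The genes with the most similar pattern over the 10 groups were found by the root mean square difference of centred log2(FPKM + 1) group means, given as a description. For Fgf4 they were Rbmxl2 (0.17), Rpl10l (0.19) and Gdf3 (0.31), and for Fgf3 they were Scube2 (0.44), Vwa5b2 (0.47) and Adamts9 (0.55). For Fgfr4 they were Fam189a2 (0.26), Lrrc38 (0.32) and Frmpd1 (0.35), and for Fgfr1 Bok (0.35), Ncs1 (0.47) and Eva1b (0.48). Fgfr2 was near to Itm2a (0.27) and Ctxn1 (0.33), and Fgfr3 to Samd8 (0.46), Rps3a2 (0.50) and Sfmbt2 (0.51). Klb was nearest to Dhrs7 (0.51), Slc44a3 (0.56) and Abhd6 (0.57), and its matches, like those of Fgf3 and Fgfr3, were looser than those of Fgf4. Spry2 was nearest to Ganab (0.23), Zfp563 (0.24) and Cat (0.24), Spry4 to Tubb2a (0.27), Dusp5 (0.29) and Pfn1 (0.31), and Dusp6 to Grb14 (0.32), Gnao1 (0.36) and Ier3 (0.37). Among the 10 genes themselves the closest pair was Fgfr2 and Dusp6 (0.70), and Fgf3 was closest to Fgfr4 (0.94).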

How the data were processed

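RNA of 21 libraries in 10 groups was extracted with RNeasy Plus Mini kits and made into libraries with NEBNext Ultra kits, per the labels' protocols. The deposited files give FPKM with lower and upper bounds per gene, which the authors produced with TopHat and Cufflinks (mm10), per the submitters' processing notes, with versions not given in the sources used here. FPKM values were analysed as log2(FPKM + 1). The 16650 genes reaching 1 FPKM in 2 or more libraries were fitted with limma 3.58.1 (R 4.3.3, intensity trend of the prior variance), with 1 coefficient for each group and 11 residual degrees of freedom. Benjamini-Hochberg adjustment was made per comparison, and calls needed an adjusted p under 0.05 with a log2 difference of 1 or more in size. XEN and pluripotent are means of 2 group coefficients. A slope over 16 days was fitted to 6 libraries (4 residual degrees of freedom). The single libraries of 4 groups add nothing to the spread. The fit was also run on simulated data with independent noise and known changes, which cannot speak to differences of strain or medium. Relative depth came from low genes, whose bounds show what 1 fragment is worth.

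Besides the 10 genes, up to 4 called genes with the largest change per pathway list and comparison, ligands with a mean of at least 5 FPKM in a group, and the 3 genes nearest in pattern were named, some of which are given; 1 result is not reported here. The genes and lists were chosen with earlier results of these data known. Loci are mm10, counted from 1, and overlaps were read from GENCODE M21. Motif matches were counted in upstream windows from RefSeq.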

Additional observations from a re-analysis of the deposited data

Results flagged for a closer look

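Among the 7 CiPSC lines, none of the 10 FGF genes had a line that stood apart from the others by Dixon's test at 95%. Of 55 other pathway genes, 3 had such a line, where chance flags about 1 in 20 groups. Nf1, which turns RAS off, had 2.21 FPKM in line C3, the library of lowest depth, and 5.08 to 7.66 FPKM in the other lines. Spry1 had 4.15 FPKM in line C2 and 6.11 to 7.06 FPKM in the other lines. Spry3 had 0.0915 FPKM in line C3, again the library of lowest depth, and 0.0154 to 0.0454 FPKM in the other lines. All these Spry3 values are near 0.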

How the results depend on the processing

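Alternatives changed the pseudocount (0.1), the filter, the scaling, the fit or 1 library at a time, and, chosen after seeing the data, the processing set. This set is the 4 libraries whose files give 446 entries the status LOWDATA (day 12, day 16 replicate 1, day 20 and day 26), so it divides the day 16 replicates and the time course, and in the day 16 comparisons it cannot be told apart from day 16 replicate 1. Of 23 calls of the 10 genes, 12 held in every alternative run and 0 reversed. Of 47 uncalled results, 3 were called and 14 changed sign at least once. With only the groups compared in the fit, the number of the 10 genes called was 0 for day 16 against MEF, 1 for day 16 against XEN and 0 for CeXEN against eXEN. Leaving out 1 library gave 7 to 9 calls for XEN against pluripotent, 4 in each case for day 16 against MEF, 1 to 4 for day 16 against XEN (1 without day 16 replicate 2), 1 to 3 for CeXEN against eXEN (3 without eXEN replicate 1, 2 without CeXEN replicate 1), 5 to 6 for CiPSC against day 16, and 0 for CiPSC against ESC and the trend. The causes were not tested.

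Sign changes among uncalled differences were as follows. For day 16 against MEF, quantile normalization gave -0.13 (Fgfr3) and -0.14 (Spry2), median-of-ratios scaling -0.29 (Spry2) and the processing set -0.058 (Spry2), and leaving out 1 library gave -1.21 to 0.027 (Fgfr2), -0.057 to 0.45 (Fgfr3) and -0.45 to 0.52 (Spry2). For day 16 against XEN, Spry4 was 0.038 with pseudocount 0.1, 0.61 with the processing set and -0.65 to 0.61 without 1 library. For CeXEN against eXEN, leaving out 1 library gave -0.23 to 0.21 (Fgfr4), -0.32 to 1.34 (Spry4) and -3.0 to 0.34 (Fgfr3, the highest without eXEN replicate 2), while Fgfr1 (2.16, adjusted p = 0.0175) and Fgfr3 (-3.0, adjusted p = 0.00531) were called without eXEN replicate 1 and Fgfr1 (2.15, adjusted p = 0.0151) without CeXEN replicate 1. For CiPSC against ESC, quantile normalization gave 0.021 (Fgfr4), and leaving out 1 library gave -0.26 to 0.66 (Fgf3), -0.86 to 0.19 (Fgf4), -0.099 to 0.049 (Fgfr4), -0.37 to 0.38 (Klb), -0.85 to 0.32 (Spry2) and -1.58 to 2.26 (Spry4). Fgfr3 in the trend was -0.19 in the 4 libraries of 1 processing set.

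In each group of 2 libraries, replicate 2 was subtracted from replicate 1 for every tested gene. These differences correlated between groups at -0.116 to 0.051, so the numbers were not taken as pairs. With the replicate block, Spry4 was -0.086 between CiPSC and ESC, and the calls of the 10 genes numbered 8, 4, 4, 1, 6 and 0 in the 6 comparisons, as without it. In the comparisons among MEF, day 16, CeXEN and eXEN the block was balanced, so by design it could not move the differences themselves.

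With each receptor at the quantifier's bounds, the leading share was 30.8% to 41.0% at day 12 (Fgfr2, so that the leader at day 12 is unsure), 76.6% to 87.5% at day 20, 70.0% to 80.1% at day 26 and 80.2% to 90.9% at day 28 (Fgfr4), and 77.5% to 93.1% in CiPSC and 72.0% to 91.2% in ESC (Fgfr1).

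For all tested genes, day 16 against MEF gave 2219 higher and 1233 lower calls, 0 and 0 with only these groups in the fit, and 789 lower without day 16 replicate 1 or with the processing set. Day 16 against XEN gave 2002 higher and 312 lower, 1256 and 735 with quantile normalization, 563 lower with median-of-ratios scaling, 951 and 106 with only these groups, and 617 lower without CeXEN replicate 1. CeXEN against eXEN gave 668 higher and 409 lower, 0 and 0 with only these groups, 1536 higher without CeXEN replicate 1, 295 and 255 without CeXEN replicate 2, and 317 and 250 without eXEN replicate 2. CiPSC against ESC gave 6 higher and 4 lower, with 35 and 16 without ESC replicate 1 and 0 to 18 lower in the other alternatives. Quantile normalization moved the median of all genes to -0.02 for XEN against pluripotent, 0.01 for day 16 against MEF and -0.04 for day 16 against XEN, against -0.20, 0.22 and 0.17 as deposited.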
